A study of Mus musculus with 6 samples.

Results

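Keratins and uroplakins were examined in mouse renal cortex after ischemic injury, with and without treatment with BA. Members were taken by symbol: every gene named Krt followed by digits only, and every gene whose symbol starts with Upk1, Upk2 or Upk3. The rule found 23 of the 19176 rows of the expression table, 17 keratins and 6 uroplakins. They were divided into 5 keratins of simple epithelium (Krt7, Krt8, Krt18, Krt19 and Krt20), 10 genes of the urothelium (Krt5, Krt14, Krt15, Krt17 and the 6 uroplakins) and 8 other keratins. Of the 56 symbols that follow the rule in GENCODE release M21, 33 were not among the rows, all of them keratins, with Krt13 of the urothelium among them. Every row of the table held at least 10 reads over the 6 libraries.

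Keratins build the intermediate filaments of epithelial cells, and each filament pairs an acidic type I chain with a basic type II chain. In the kidney, KRT8 and KRT18 are the common pair of simple epithelium, KRT7 and KRT19 belong mainly to collecting duct and other duct-like epithelium, and injured tubules are known to raise several of these genes. Uroplakins form the plaques on the luminal face of the urothelium that lines the renal pelvis and the bladder, where KRT5 and KRT14 mark basal cells and KRT20 marks the superficial umbrella cells.

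The mice were wild-type male young adults of the C57BL/6J strain, and all of them underwent unilateral renal ischemia-reperfusion injury (UIRI). The UIRI group (3 libraries) was given vehicle intraperitoneally each day, and the UIRI + BA group (3 libraries) was given BA at 1 mg/kg in the same way, with cortex collected on day 14. According to the paper's methods, the right kidney was taken out the day before collection. BA stands for bruceine A, a quassinoid of Brucea javanica, although the sample labels spell it brucine A. No library of an uninjured kidney was analysed here, so each value compares injured kidneys with and without BA, and the tissue is a mixture of tubular, interstitial, vascular and glomerular cells. Because these were bulk samples, fewer cells of a type and less RNA per cell cannot be told apart.

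Levels are given as normalized counts, which are reads of a gene divided by a size factor of its library. The UIRI libraries held 18683621, 18684293 and 38124164 reads on genes in replicates 1, 2 and 3. The UIRI + BA libraries held 16510720, 19725912 and 20313529. UIRI replicate 3 thus had 2.04 times the median depth of the other 5 libraries. At these depths 1 read was worth between 0.548 and 1.25 normalized counts, and a count of 0 allows up to 3 reads, which is 3.76 normalized counts in UIRI + BA replicate 1 and 3.23 in replicate 2. These limits cover counting error only.

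Both libraries numbered 3 stood apart in the urothelial genes. In the UIRI group, replicate 3 had the highest level of 8 of the 10 genes, and the 10 genes summed to 3.49 times the mean of replicates 1 and 2. In the UIRI + BA group, replicate 3 had the highest level of 9 of the 10, with a sum 6.64 times that mean. The samples share these numbers only as labels, so results on urothelial genes are given with and without both libraries.

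No gene of the table passed limma's test at an adjusted p below 0.05 (0 of 19176, 0.0%); its lowest adjusted p over the table was 0.225. Without adjustment, p was below 0.05 in 1971 of all rows (10.3%) and in 4 of the 23 members. These 4 were Krt18, Krt19 and Krt7, which were lower with BA, and Krt20, which was higher. Fitted log2 fold changes (UIRI + BA over UIRI) are on the log2(value + 1) scale. For genes with few reads they can be smaller or larger than the change in mean counts. Their median was -0.29 over the members, 17 of which were lower with BA and 6 higher, beside -0.01 over all rows. The groups did not overlap in 4 members, beside 14.4% of all rows. Of these, Krt18, Krt19 and Upk3bl were lower with BA, a direction in which 6.96% of all rows did not overlap, and Krt87 was higher. Tested with DESeq2 on the recovered reads, 213 of 14340 genes with an adjusted p passed 0.05 (1.49%), and 2 of the 8 members with an adjusted p, Krt18 and Krt19, were among them. edgeR's quasi-likelihood test called 0 genes at an adjusted p below 0.05. Its unadjusted p was below 0.05 in 1703 of 17155 genes (9.93%) and in 4 of the 18 members it tested.

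Among the keratins of simple epithelium, the type II keratin Krt8 differed little between the groups, while its type I partner Krt18 was lower with BA. Krt8 was measured at 6654, 6346 and 6573 normalized counts in UIRI replicates 1 to 3 and at 5720, 6763 and 6387 in the UIRI + BA replicates. The groups overlapped, with the highest and the lowest library both in the UIRI + BA group, and the log2 fold change was -0.06 (95% interval -0.24 to 0.13). Its sign turned when UIRI + BA replicate 1 was left out (0.01). Krt18 was measured at 3569, 3064 and 3695 in the UIRI group and at 2526, 2725 and 2598 in the UIRI + BA group. Every UIRI library was above every UIRI + BA library, with means of 3442 ± 334 and 2616 ± 101 (SD, n = 3 each). The log2 fold change of Krt18 was -0.39 with an SE of 0.09, an unadjusted p of 0.00149 and an adjusted p of 0.249 by limma. The adjusted p was 0.0194 by DESeq2 and 0.0488 by limma without UIRI replicate 3, where 5.02% of all rows were called, and ranged from 0.0194 to 1.00 over 14 alternatives. Leaving out 1 library at a time gave log2 fold changes from -0.47 to -0.34.

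Krt19 is the smallest keratin and lacks most of the tail domain that other keratins carry. It was measured at 866, 689 and 976 normalized counts in the UIRI group and at 529, 593 and 599 in the UIRI + BA group. The groups did not overlap, and the gap between the lowest UIRI and the highest UIRI + BA library was small beside the spread within the UIRI group. The means were 844 ± 145 and 574 ± 39.1 (SD, n = 3 each), the log2 fold change was -0.54 (SE 0.13) and limma gave an unadjusted p of 0.00215 and an adjusted p of 0.260. DESeq2 gave an adjusted p of 0.0180, the lowest in a range up to 1.00 over 14 alternatives. Krt7, a type II keratin of ducts, was measured at 3199, 2784 and 3087 with vehicle and at 2558, 2800 and 2396 with BA. UIRI + BA replicate 2 lay just above UIRI replicate 2, so the groups overlapped. The log2 fold change of Krt7 was -0.23 (95% interval -0.42 to -0.03, unadjusted p 0.0289, adjusted p 0.448 by limma). Its unadjusted p was no longer below 0.05 without UIRI replicate 1 (0.109), UIRI + BA replicate 1 (0.0664), UIRI + BA replicate 3 (0.117) or both libraries numbered 3 (0.130). That of Krt18 was at most 0.00813 and that of Krt19 at most 0.0116 with 1 library left out.

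Krt20, a type I keratin of umbrella cells and of gut epithelium that is also known from injured renal tubules, went the other way. Its level was 1067, 1229 and 1001 normalized counts in the UIRI group and 1196, 1717 and 1491 in the UIRI + BA group. UIRI + BA replicates 2 and 3 were above every UIRI library, while replicate 1 lay between UIRI replicates 1 and 2. The means were 1099 ± 118 and 1468 ± 261 (SD, n = 3 each). Its log2 fold change was 0.41 (SE 0.13, unadjusted p 0.0141, adjusted p 0.389 by limma), and it was 0.29 to 0.55 with 1 library left out at a time. Its unadjusted p was above 0.05 without UIRI + BA replicate 2 (0.0589) and without both libraries numbered 3 (0.0633). Libraries numbered 3, which were high in the urothelial genes, were not the highest of their group in Krt20. Over the 5 simple keratins the median log2 fold change was -0.23, and their summed level was 14933 ± 711 in the UIRI group and 13533 ± 1036 in the UIRI + BA group (SD, n = 3 each), with overlap.

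**Figure D1:**
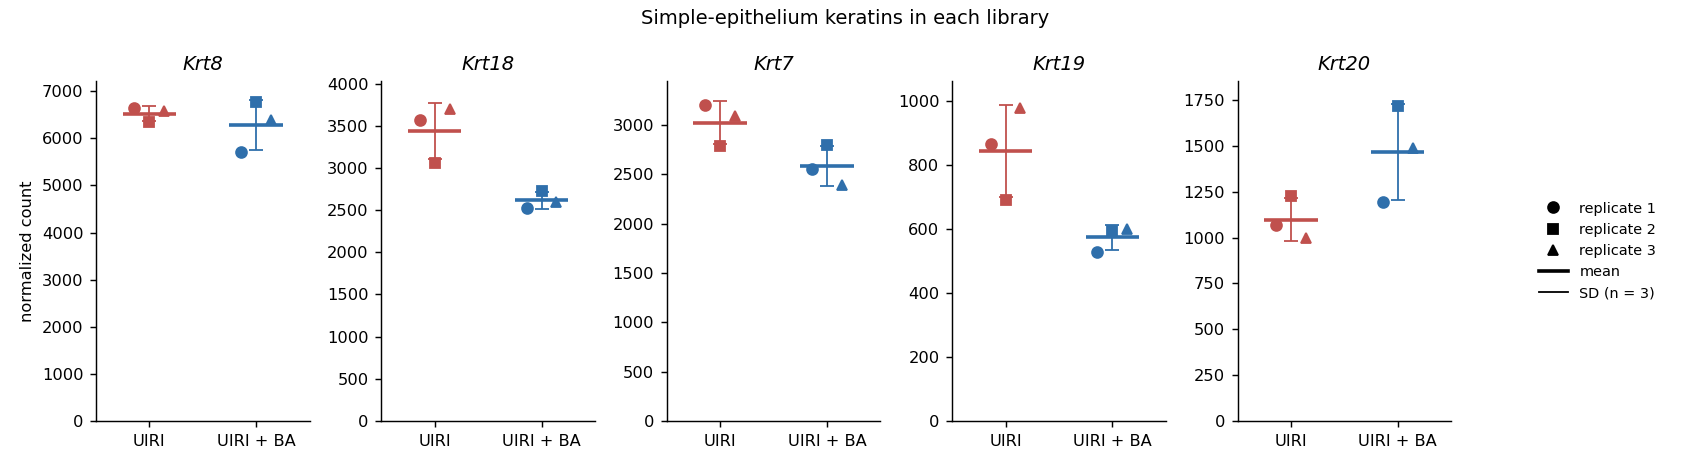
Normalized counts (vertical axes, starting at 0) of the 5 keratins of simple epithelium in the UIRI (red) and UIRI + BA (blue) groups. Points are single libraries, wide bars are means and thin bars are SD (n = 3). Krt18 and Krt19 do not overlap between the groups, while Krt8, Krt7 and Krt20 do.

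Because Krt8 differed least, the other simple keratins were also set against it within each library, which removes the library's size factor. Krt8 was chosen as the denominator after the values were seen. The ratio of Krt18 to Krt8 was 0.536, 0.483 and 0.562 in the UIRI group and 0.442, 0.403 and 0.407 in the UIRI + BA group. Without overlap, it was lower in each of the 3 UIRI + BA libraries. The ratio of Krt19 to Krt8 was 0.130, 0.109 and 0.149 with vehicle and 0.0924, 0.0877 and 0.0938 with BA, again without overlap and with a smaller spread in the UIRI + BA group. The ratio of Krt20 to Krt8 was 0.160, 0.194 and 0.152 with vehicle and 0.209, 0.254 and 0.233 with BA. Here every UIRI + BA library was above every UIRI library, although Krt20 alone overlapped. Thus 3 of the 4 ratios did not overlap, beside 2156 of the 19175 other rows (11.2%) when each was divided by Krt8. The ratio of Krt7 to Krt8 overlapped, with means of 0.463 ± 0.0218 and 0.412 ± 0.0361 (SD, n = 3 each). An exact two-sided permutation test of 3 libraries against 3 cannot give a p below 0.1. It gave 0.1 for the ratios of Krt18, Krt19 and Krt20 and 0.2 for that of Krt7, or 0.133 and 0.2 after Benjamini-Hochberg adjustment over the 4 ratios. Summed per length, the type I chains Krt18, Krt19 and Krt20 stood to the type II chains Krt7 and Krt8 as 0.910, 0.864 and 0.953 to 1 in the UIRI group. In the UIRI + BA group these ratios were 0.811, 0.807 and 0.806, which differed from each other by less than any pair of UIRI libraries. The size of these ratios depends on the exon length of Krt7, 7049 bases over all its transcripts.

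**Figure D2:**
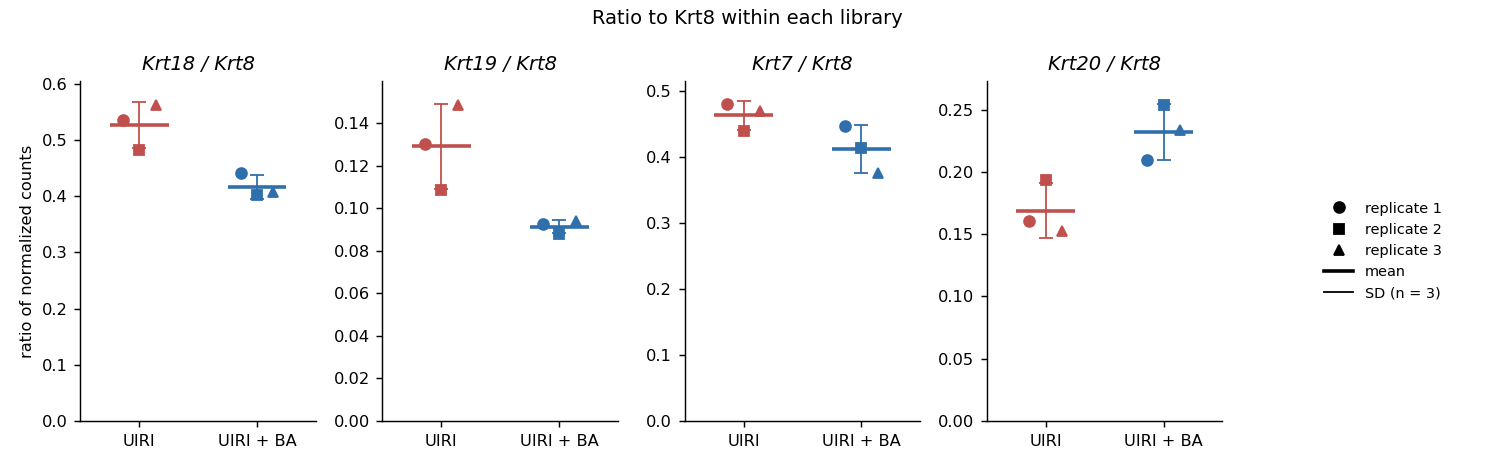
Ratio of the normalized count of Krt18, Krt19, Krt7 and Krt20 to that of Krt8 within each library (vertical axes, starting at 0). Points are libraries, wide bars are means and thin bars are SD (n = 3). The ratios of Krt18 and Krt19 are lower and that of Krt20 is higher in all 3 UIRI + BA libraries, and the ratio of Krt7 overlaps.

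Since Krt8 and Krt18 are neighbours in the mouse RefSeq annotation and yet differed in their values, and Krt7 and Krt20 stood on opposite sides, the promoters of these 4 genes are shown. RefSeq promoters (build GRCm38.p6, 250 bases before to 50 after the start of the gene) were available for 13 of the 23 members, and Krt19 had no entry. They were searched on both strands for TATAAA (the TATA box), TGANTCA (the AP-1 motif), AACCGGTT (a motif of grainyhead factors, which are epithelial regulators) and GGGCGG (the core of the Sp1 motif). Matches are in capitals and each sequence is written 5′ to 3′ on the strand of its gene. Krt8 lies at chr15:102004293-102004592 on the minus strand and Krt18 at chr15:102027966-102028265 on the plus strand. Krt7 lies at chr15:101412153-101412452 on the plus strand and Krt20 at chr11:99438104-99438403 on the minus strand.
Krt8: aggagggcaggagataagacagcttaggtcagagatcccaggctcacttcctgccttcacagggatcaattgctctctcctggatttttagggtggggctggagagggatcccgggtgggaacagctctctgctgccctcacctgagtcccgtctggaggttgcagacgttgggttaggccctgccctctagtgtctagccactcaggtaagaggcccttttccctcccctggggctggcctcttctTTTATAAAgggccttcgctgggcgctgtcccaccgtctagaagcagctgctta
Krt18: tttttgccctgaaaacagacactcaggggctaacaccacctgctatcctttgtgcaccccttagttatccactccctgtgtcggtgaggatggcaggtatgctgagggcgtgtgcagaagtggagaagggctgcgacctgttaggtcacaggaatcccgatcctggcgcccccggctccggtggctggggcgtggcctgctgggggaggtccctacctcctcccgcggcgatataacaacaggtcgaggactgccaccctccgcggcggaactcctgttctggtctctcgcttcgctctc
Krt7: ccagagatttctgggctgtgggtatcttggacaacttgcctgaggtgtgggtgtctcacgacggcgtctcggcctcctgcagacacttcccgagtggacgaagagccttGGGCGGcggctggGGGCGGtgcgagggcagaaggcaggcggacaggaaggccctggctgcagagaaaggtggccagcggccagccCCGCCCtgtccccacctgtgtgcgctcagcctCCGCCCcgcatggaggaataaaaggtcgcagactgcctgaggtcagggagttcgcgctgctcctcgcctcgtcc
Krt20: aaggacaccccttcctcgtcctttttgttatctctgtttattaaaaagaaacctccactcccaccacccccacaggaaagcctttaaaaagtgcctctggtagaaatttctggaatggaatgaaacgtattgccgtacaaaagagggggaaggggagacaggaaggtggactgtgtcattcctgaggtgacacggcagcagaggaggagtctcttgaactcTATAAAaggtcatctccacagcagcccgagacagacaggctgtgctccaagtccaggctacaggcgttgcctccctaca
The window of Krt8 holds TATAAA on both strands in 1 overlapping stretch at the start of the gene, that of Krt20 holds it once before the start, and that of Krt7 holds GGGCGG or its reverse complement 4 times. The window of Krt18 holds none of the 4 motifs. Over the 13 members, TATAAA was found in 4 promoters, GGGCGG in 2, and TGANTCA and AACCGGTT in 0. Among all 32851 promoters of the same length, TATAAA was found in 13.6%, GGGCGG in 35.7%, TGANTCA in 7.81% and AACCGGTT in 0.146%. A match only describes these letters, and binding was not measured.

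The urothelial genes were far less abundant, and most of them varied widely within the groups. Krt15, a type I keratin of basal and stem-like cells of stratified epithelium, was measured at 55.5, 48.4 and 217 normalized counts in the UIRI group and at 1.25, 5.38 and 152 in the UIRI + BA group. Krt5, the type II keratin of basal cells, was measured at 18.1, 22.5 and 107 with vehicle and at 1.25, 3.23 and 56.3 with BA. Krt14, the type I partner of Krt5, was measured at 11.3, 11.2 and 65.7 with vehicle and at 0, 0 and 32.3 with BA. In all 3 genes replicate 3 was the highest library of its group, UIRI + BA replicates 1 and 2 were the lowest libraries of all, and the groups overlapped because UIRI + BA replicate 3 lay above UIRI replicates 1 and 2. The log2 fold changes were -2.70 (SE 1.31) for Krt15, -2.16 (SE 1.11) for Krt5 and -2.75 (SE 1.28) for Krt14, with adjusted p of 0.518, 0.534 and 0.503 by limma. The fitted values weigh libraries near 0 heavily: on the count scale, the mean with BA was 0.496 of the UIRI mean for Krt15, 0.413 for Krt5 and 0.366 for Krt14. Krt17, a keratin of wounded and activated stratified epithelium, was measured at 29.5, 1.12 and 21.4 with vehicle and at 5.01, 10.8 and 12.5 with BA. Krt14 and Krt17 are similar in sequence, and how shared reads were counted is not stated. Krt17 did not share the pattern of the other 3. UIRI replicate 2 held a single read of it, and the log2 fold change of -0.20 was -1.41 without that library (unadjusted p 0.0123). It changed sign without the libraries numbered 3 (0.06) and without UIRI replicate 1 (0.52), UIRI replicate 3 (0.29) or UIRI + BA replicate 1 (0.16). The log2 fold change was -0.88 by DESeq2 and by edgeR, and on the count scale the mean with BA was 0.545 of the UIRI mean.

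Uroplakins pair a tetraspanin (UPK1A or UPK1B) with a single-pass partner, UPK2 for UPK1A and UPK3A or UPK3B for UPK1B. Upk1a was measured at 26.1, 19.1 and 42.2 normalized counts in the UIRI group and at 20.04, 20.46 and 34.4 in the UIRI + BA group, so the tetraspanin gene differed little between groups (log2 fold change -0.18, or 0.11 without UIRI replicate 3). Its partner Upk2 was measured at 4.53, 4.50 and 20.3 with vehicle and at 0, 0 and 9.39 with BA. Upk1b was measured at 12.5, 15.7 and 78.9 with vehicle and at 6.26, 2.15 and 30.3 with BA. In all 3 genes replicate 3 was the highest of its group. Upk3a was measured at 9.06, 8.998 and 59.1 with vehicle and at 1.25, 0 and 37.6 with BA. Upk3b, which is also made by mesothelium, was measured at 26.1, 12.4 and 29.6 with vehicle and at 10.02, 9.69 and 20.9 with BA. Replicate 3 was again the highest of its group in both. Upk3bl, its neighbour in the RefSeq annotation, was measured at 21.5, 18.0 and 16.4 with vehicle and at 15.0, 8.62 and 13.6 with BA. It was the only urothelial gene without overlap and the only uroplakin in which replicate 3 was the lowest of the UIRI group. The log2 fold changes were -1.55 for Upk1b, -1.99 for Upk2, -2.04 for Upk3a, -0.70 for Upk3b and -0.58 for Upk3bl, and limma gave adjusted p from 0.517 to 0.857 over the 6 uroplakins. On the count scale, the mean with BA was 0.858 of the UIRI mean for Upk1a, 0.361 for Upk1b, 0.321 for Upk2, 0.503 for Upk3a, 0.597 for Upk3b and 0.665 for Upk3bl. With 1 library left out, the log2 fold change ranged from -2.45 to -0.75 for Upk1b, from -3.11 to -1.34 for Upk2, from -3.60 to -0.97 for Upk3a, from -1.07 to -0.47 for Upk3b and from -0.72 to -0.35 for Upk3bl. DESeq2 gave -1.47 for Upk1b, -1.64 for Upk2 and -0.99 for Upk3a. Without both libraries numbered 3 they were -0.13 for Upk1a, -1.65 for Upk1b, -2.46 for Upk2, -2.74 for Upk3a, -0.81 for Upk3b and -0.74 for Upk3bl, with adjusted p from 0.0720 to 0.846.

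**Figure D3:**
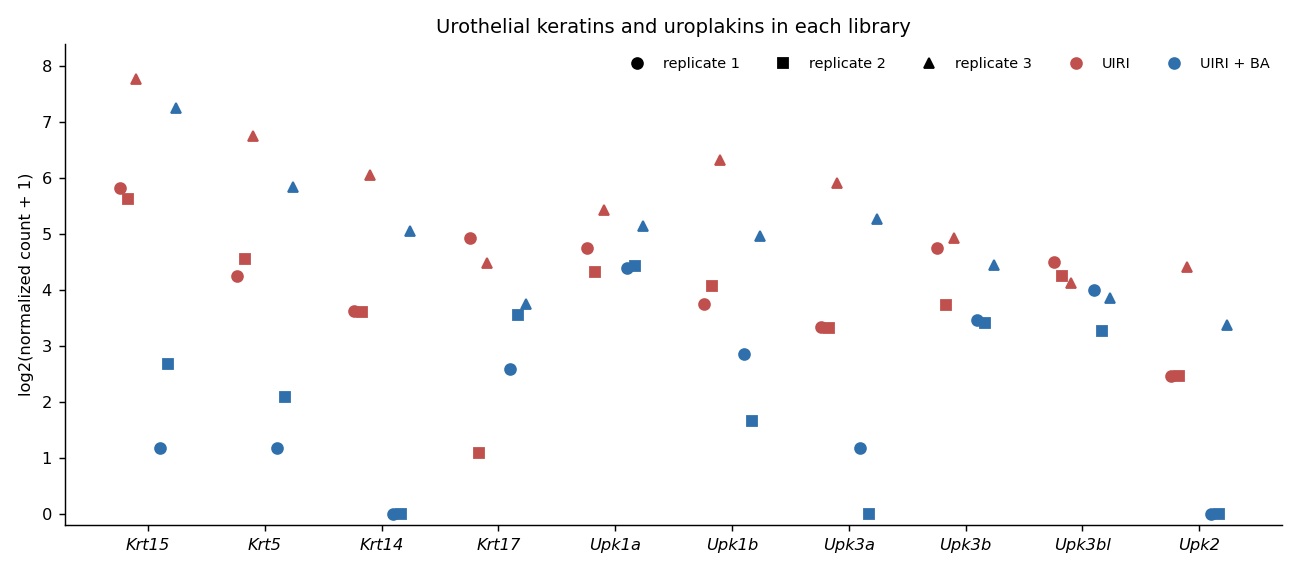
log2(normalized count + 1) (vertical axis) of the urothelial keratins and uroplakins in every library. Red symbols are UIRI and blue symbols UIRI + BA libraries, circles, squares and triangles are replicates 1, 2 and 3, and symbols at 0 are libraries with no read. Triangles lie at the top of both groups in most genes, and blue circles and squares lie lowest in Krt15, Krt5, Krt14, Upk1b, Upk3a and Upk2.

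Summed over the 10 urothelial genes, the level was 214, 162 and 657 normalized counts in the UIRI group and 60.1, 60.3 and 400 in the UIRI + BA group. Relative to the 5 simple keratins, this was 1.39%, 1.15% and 4.29% with vehicle and 0.480%, 0.413% and 2.97% with BA. The 2 libraries numbered 3 were the highest of all 6. All 10 genes had a negative log2 fold change, with a median of -1.77, and limma gave 0 of them an unadjusted p below 0.05. With the replicate number as a block, limma's unadjusted p ran from 0.000929 for Krt5 to 0.00756 for Upk2, with Krt14, Krt15, Upk1b and Upk3a between. It stayed above 0.05 for Krt17, Upk1a, Upk3b and Upk3bl. In this fit 2106 of all 19176 rows had an unadjusted p below 0.05. The numbers are only labels, and the block takes out the spread from both libraries numbered 3, which were high in these same genes. No conclusion is drawn from the block fit. DESeq2 gave none of the 10 an adjusted p, and edgeR called 0 of the 8 it tested. The median was smaller in size by DESeq2 (-1.003) and edgeR (-0.96). It was -0.70 over the 7 genes with a value of 1 or more in each library. With both libraries numbered 3 left out, 9 of the 10 were lower with BA, the median was -2.06, and 6 had an unadjusted p below 0.05, as 23.2% of all rows did in that fit. The adjusted p was then 0.0142 for Krt15 (log2 fold change -3.80), 0.0334 for Krt5 (-2.78) and 0.03001 for Krt14 (-3.62), and 2.90% of all rows were called. With 2 libraries a group, these calls rest on UIRI + BA replicates with 0 to 5 reads of each gene, and over the alternatives the adjusted p of these 3 genes went up to 1.00. The libraries were left out because they were high in these same genes, which takes out spread within the groups. These calls thus depend on the values tested, and no conclusion is drawn from them. The median over the 10 genes was -0.96 without UIRI replicate 3, -0.88 without UIRI + BA replicate 2 and -2.78 without UIRI + BA replicate 3.

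The 8 other keratins are mostly known from skin, hair, cornea and mucosa, and none had an unadjusted p below 0.05. Krt80, a widely expressed type II keratin, was at 268 ± 28.6 normalized counts in the UIRI group and 277 ± 46.6 in the UIRI + BA group (SD, n = 3 each). Its log2 fold change of 0.04 turned negative without UIRI replicate 3, UIRI + BA replicate 1 or UIRI + BA replicate 2. Krt10 was at 156 ± 6.41 and 141 ± 18.6, and Krt23, a type I keratin, at 104 ± 14.4 and 84.7 ± 10.5 (SD, n = 3 each), both with overlap. Krt222 was at 25.9 ± 1.81 and 31.1 ± 12.8 (SD, n = 3 each), the latter high only in UIRI + BA replicate 3, without which its log2 fold change turned from 0.19 to -0.12. Krt12, Krt83, Krt87 and Krt4 had means below 10 over all 6 libraries. Krt87, named because its groups did not overlap, had 3 to 10 reads in UIRI and 6 to 12 in UIRI + BA libraries. Krt4 had 0 to 11 reads in UIRI libraries, with replicate 3 the highest, and 0 to 2 in UIRI + BA libraries, with overlap. Per kilobase of exon, the order of the UIRI means was Krt8 (3332 normalized counts per kilobase), Krt18 (2396), Krt20 (570), Krt19 (455) and Krt7 (429), followed by Krt10 (73.7), Krt23 (66.5), Krt15 (60.5) and Krt80 (42.0). With BA, Krt20 was at 762 and Krt7 at 367, above Krt19 at 309. Exon lengths were taken from GENCODE release M21 and join all transcripts of a gene. That of Krt7 was 7049 bases, while the other simple keratins had 1437 to 1958, so the place of Krt7 depends on this length. By normalized count alone, Krt7 stood above Krt20 and Krt19 in every library.

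**Figure D4:**
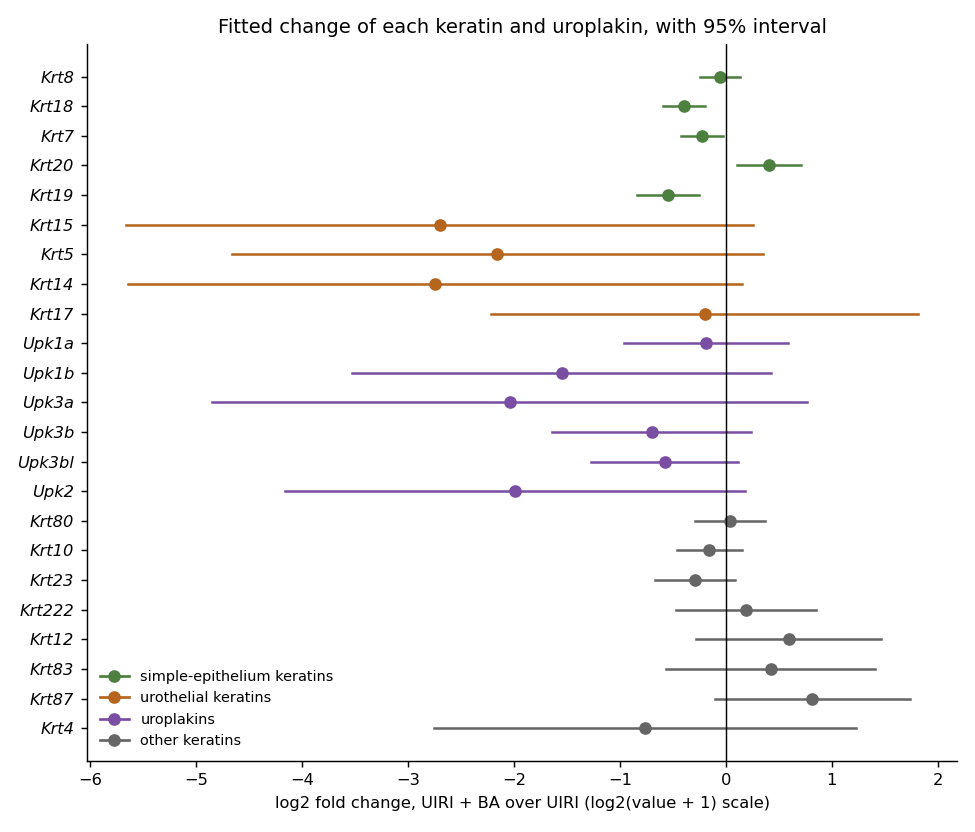
Fitted log2 fold change of UIRI + BA over UIRI (horizontal axis, log2(value + 1) scale) for all 23 members, with the 95% interval of limma's fit as a line. Colors mark simple-epithelium keratins (green), urothelial keratins (orange), uroplakins (purple) and other keratins (grey). Only the intervals of Krt18, Krt7, Krt19 and Krt20 lie off 0, and those of the urothelial genes are wide.

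Markers of other cells were set beside these values. All 10 urothelium markers outside the members were among the rows. With BA, 7 were lower and 3 higher (median -0.33), and 0 had an unadjusted p below 0.05. Without both libraries numbered 3 the median was -0.19, and 3 of 10 had an unadjusted p below 0.05, beside 23.2% of all rows. The summed level of the 10 markers was 1161, 995 and 1427 normalized counts with vehicle and 897, 1044 and 1048 with BA. Most of it came from Sfn, which other epithelia also express. Psca, a surface antigen of urothelium, was measured at 44.2, 23.6 and 58.6 with vehicle and at 7.52, 18.3 and 42.8 with BA. Foxa1, a transcription factor of urothelial differentiation, was at 10.2, 21.4 and 59.1 with vehicle and at 3.76, 3.23 and 40.7 with BA. Both were highest of their group in the libraries numbered 3, as most urothelial genes were. Ly6d, Fxyd3, Snx31 and Trp63, the last a transcription factor of basal cells, were also highest there, with log2 fold changes of -0.60, -0.61, 0.05 and -0.29. The remaining markers Grhl3 (-0.37), Ivl (0.27), Shh (0.12) and Sfn (-0.23) had overlapping groups.

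Of 6 mesothelium markers, Lrrn4, Muc16 and Bnc1 were not among the rows. The other 3 summed to 1909, 1585 and 2124 normalized counts with vehicle and 1706, 1664 and 2274 with BA, mostly from Gpm6a, and Msln was lower with BA (log2 fold change -0.74, unadjusted p 0.0275). Gpm6a and Wt1 are also expressed by other cells of the kidney, Wt1 by podocytes. Of 7 skin markers, Lor, Flg, Krtdap, Dsg1a and Lce1a1 were not among the rows. The other 2, Sbsn and Trp63, summed to 266, 251 and 294 with vehicle and 266, 260 and 261 with BA, mostly from Sbsn.

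Of 11 collecting duct markers, 9 were higher with BA and 2 lower (median 0.26), while Krt7, Krt18 and Krt19 were lower. With all libraries, only the intercalated-cell transporter Slc26a4 had an unadjusted p below 0.05 (log2 fold change 0.53, p 0.0308). The markers summed to 6111, 5955 and 6622 normalized counts with vehicle and to 8194, 8074 and 5471 with BA, with Hsd11b2 as the most abundant, so UIRI + BA replicate 3 was the lowest of all 6 libraries. The median ran from 0.13 to 0.47 with 1 library left out. Without both libraries numbered 3 it was 0.45, and 8 of the 11 then had an unadjusted p below 0.05, beside the 23.2% of all rows. Of 6 inner medulla markers, 5 were lower with BA and 1 higher (median -0.12), 0 had an unadjusted p below 0.05 (median -0.23 and 4 of 6 without both libraries numbered 3), and Cryab was the most abundant. They summed to 7818, 6740 and 8743 with vehicle and 8009, 6490 and 8126 with BA. Among them, the urea transporter Slc14a2, named after its values were seen, was at 620, 235 and 814 with vehicle and 284, 125 and 485 with BA. It was highest in replicate 3 of each group, as was Aqp4 and as most urothelial genes were. Other genes of the list showed this in 1 group at most. In replicate 3, Cryab and Akr1b3 were lowest of the UIRI group and highest of the UIRI + BA group, Slc5a3 was highest of the UIRI group only, and Slc6a12 was lowest of the UIRI group. The mean log2 level of the list was highest in replicate 3 of both groups (8.97 and 8.73). The part of tissue from the pelvis or medulla in the keratin and uroplakin values was not tested.

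All 12 markers of the proximal tubule and all 4 of the podocyte, which mark cortex, were among the rows, as were all of the collecting duct, inner medulla and urothelium lists, so presence alone does not set cortex apart. Proximal tubule markers were higher with BA in 12 of 12 (median 0.68), and 10 of them, beside 10.3% of all rows, had an unadjusted p below 0.05. They summed to 57791, 66031 and 71174 normalized counts with vehicle and 77444, 88776 and 135475 with BA, with Kap the most abundant. The mean log2 level of the proximal tubule list was highest in replicate 3 of both groups (11.24 and 11.70). The mesothelium list showed this too, and the skin list did through Trp63, while Sbsn was lowest in replicate 3 of both groups. Being highest in replicate 3 was thus not particular to urothelial genes, but their excess was larger than in these lists. In UIRI replicates 1 to 3 the mean log2 level of the urothelial genes was 4.22, 3.70 and 5.62. In the UIRI + BA replicates it was 2.08, 2.11 and 4.90. For the proximal tubule list it was 10.63, 10.72 and 11.24 with vehicle and 11.51, 11.34 and 11.70 with BA. Podocyte markers summed to 9127, 10549 and 9169 with vehicle and 9497, 11143 and 8397 with BA (3 of 4 lower, median -0.08, 0 with an unadjusted p below 0.05), with Podxl the most abundant. Of 10 markers of injured tubule, 5 had an unadjusted p below 0.05, beside 10.3% of all rows. Of these 5 markers, 3 were higher and 2 lower with BA, and the median of the list was 0.00. The list summed to 459532, 459003 and 445882 with vehicle and 455331, 524635 and 487045 with BA, mostly from Spp1. These were Havcr1 (log2 fold change 0.42, unadjusted p 0.00236), Vcam1 (0.35, 0.00544) and Ccl2 (0.34, 0.0223), which were higher, and Lcn2 (-0.51, 0.000217) and Cdkn1a (-0.37, 0.0154), which were lower. Havcr1 and Lcn2 encode the injury markers KIM-1 and NGAL. Of 14 desmosome and plakin genes among the rows, which anchor keratin filaments, 8 were higher and 6 lower (median 0.02), and only Pkp4 had an unadjusted p below 0.05 (log2 fold change 0.26). They summed to 21521, 21651 and 21960 with vehicle and 23509, 22704 and 21832 with BA, with Dst the most abundant, and Dsg3 and Dsc3 were not among the rows. The part of any of these cell types in the keratin values was not tested.

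**Figure D5:**
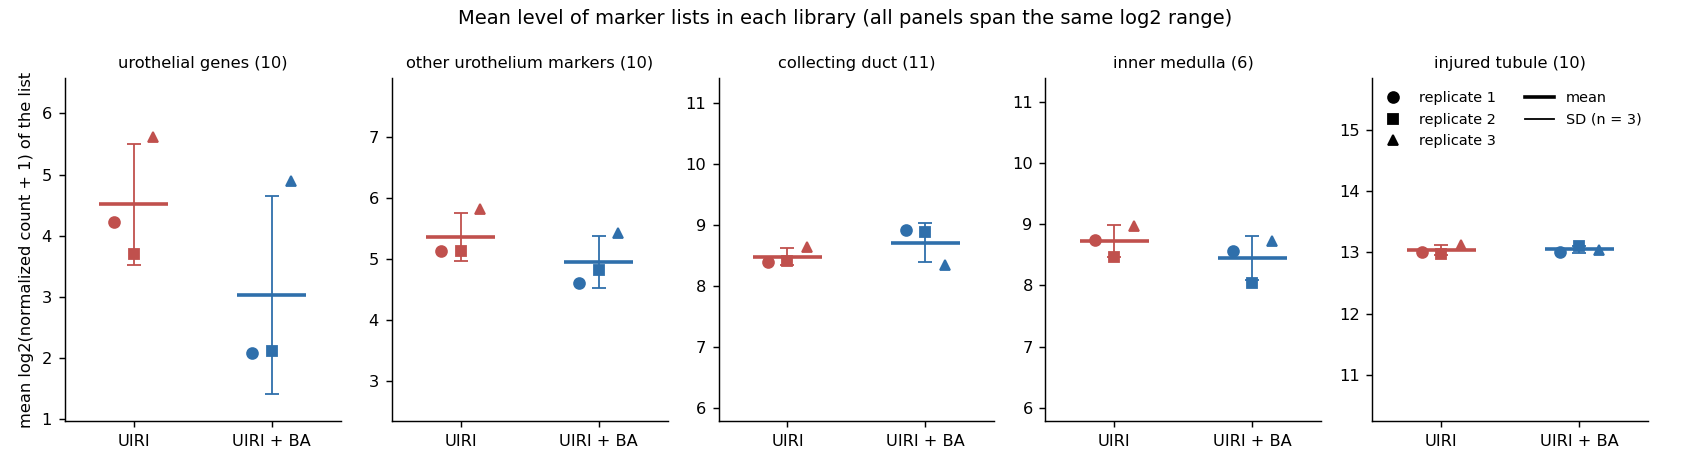
Mean log2(normalized count + 1) (vertical axes, all of the same span) of the 10 urothelial keratins and uroplakins and of 4 marker lists in each library, with the number of genes in parentheses. Points are libraries, wide bars are means and thin bars are SD (n = 3). The urothelial genes and the other urothelium markers are highest in replicate 3 of both groups, and the injured tubule list is nearly level.

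The genes most like the urothelial members were sought by Pearson's r over the 6 libraries, between their log2(value + 1) and the mean of the 9 urothelial genes with a mean of at least 10. Among 17231 candidate genes, the 10 with the highest r (0.975 to 0.991) were Fat2, Cbr2, Gm10790, Gsdmc3, Terb1, Gsdmc2, Gm11266, Sdc2, Adamts12 and Cpxm2, and 38 had an r above 0.95. With 6 libraries and so many candidates this is a description, and it rests on the high libraries numbered 3 and the low UIRI + BA replicates 1 and 2. Gsdmc2, a gasdermin of epithelium, was at 48.7, 41.6 and 195 normalized counts with vehicle and 7.52, 3.23 and 137 with BA. Gsdmc3, a close copy with which it may share reads, was at 30.6, 21.4 and 157 with vehicle and 5.01, 2.15 and 116 with BA. Both followed Krt15, with UIRI + BA replicates 1 and 2 lowest and the libraries numbered 3 highest. Cpxm2 was at 248, 110 and 364 with vehicle and 46.4, 39.8 and 215 with BA. Wnt7a, the gene at the center of the study, was at 43.1, 31.5 and 48.2 with vehicle and 18.8, 21.5 and 14.6 with BA. In replicate 3, which held the most urothelial signal of each group, it was the highest of the UIRI group and the lowest of the UIRI + BA group. The pseudogene Krt8-ps, the only other row with a keratin symbol, had 5.66 to 11.2 normalized counts.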

How the data were processed

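According to the methods, the authors used HISAT2 for alignment, FeatureCounts for counting and DESeq2 for testing. The genome build and annotation are not given in the sources used here. The deposited signal of each gene is its reads over the size factor of the library, and 100% of the values gave whole reads within 0.01 read. Their fold change, p-value and adjusted p columns, and their Gene Ontology and KEGG tables with counts and p-values of terms, were not used, and 0 sample columns went unused. Whether counting used strand or shared reads between similar genes is not stated. The groups were read from the sample labels, and the study calls the samples independent biological replicates.

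All 19176 rows and 6 libraries were fitted with limma 3.58.1 (R 4.3.3) on log2(value + 1), with an intensity trend, no covariate and Benjamini-Hochberg adjustment over all rows. On recovered reads, edgeR 4.0.16 (quasi-likelihood) and DESeq2 1.42.0 were used as alternatives. Further alternatives were scaling by upper quartile or by quantiles, keeping only rows with a value of 1 or more in each library, 0.1 as pseudocount, the replicate number as a block, leaving out each library, and leaving out both libraries numbered 3. limma, DESeq2 and edgeR were tested on simulated counts. Ratios were compared with an exact permutation test (numpy 2.4.6, scipy 1.17.1 for the adjustment).

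All simple keratins, urothelial keratins and uroplakins were named, other keratins with a mean of at least 10 or an unadjusted p below 0.05, and every urothelium marker. Of each other list, the most abundant gene was named, and those with an unadjusted p below 0.05 where 4 or fewer. Some genes were named outside this rule, among them the 5 such genes of the injured tubule list and the rest of the inner medulla list. The 10 genes most like the urothelial profile and Wnt7a were added. The members and lists were chosen with earlier results of these data known.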

Additional observations from a re-analysis of the deposited data

How the results depend on the processing

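The simple keratins kept a median log2 fold change from -0.29 to -0.16, and the urothelial genes stayed negative throughout: -0.70 with the filter on low values (7 genes left), -1.003 with DESeq2, -0.96 with edgeR, -2.10 with a pseudocount of 0.1, and -2.78 to -0.88 with 1 library left out. Genes with an adjusted p below 0.05 numbered 0 by limma and 213 by DESeq2, 557 without both libraries numbered 3, and 0 to 962 with 1 library left out, the highest without UIRI replicate 3. At an unadjusted p below 0.05 the 1971 genes became 4440 without both libraries and 808 to 4838 with 1 left out, and the 4 members became 8 and 3 to 10. The 10 members belong to the fit without UIRI + BA replicate 3, where 1612 genes passed, while the 4838 genes belong to the fit without UIRI replicate 3, where 4 members passed. The cause was not tested. Of 261 single-gene alternatives over 19 genes, 244 kept direction and side of the threshold, 6 newly passed it and 11 reversed, none of them with another scaling: Krt17 without both libraries (0.0643), Krt222 without both (-0.0902), and with 1 library left out Krt8 (-0.110 to 0.0109), Upk1a (-0.44 to 0.11), Krt17 (-1.41 to 0.52), Krt80 (-0.0628 to 0.179) and Krt222 (-0.12 to 0.35).

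With the replicate number as a block, 6 genes had an adjusted p below 0.05 and 10 members an unadjusted p below 0.05, as did 2106 of all 19176 genes. Krt5, Krt14, Krt15, Upk1b, Upk2 and Upk3a were among these members. Deviations of libraries with the same number correlated at -0.24, 0.30 and 0.15, so the numbers were not treated as pairing the samples; UIRI replicate 3 correlated best with UIRI + BA replicate 1, not with its own number.

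Several urothelial genes had 0 to 5 reads in UIRI + BA replicates 1 and 2, and their levels spread widely between libraries of a group. Each group had 3 libraries.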
